A study of Mus musculus with 32 samples.

Results

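The comparison described here is that of food-grade titanium dioxide, the white food pigment E171, against control pellets in the livers of male mice on a normal diet. Its members were chosen by their labels: 8 mice with E171 and 8 control mice on the normal diet, 16 of the 32 mice in the series. All were F1 males of the C57BL/6J strain, sampled at 21 weeks of age. The E171 group received pellets with a target dose of 10 mg/kg body weight daily, and the control group pellets without E171. F0 females were put on these pellets when 8 weeks old, 40 days before mating, and the pups stayed on the treatment of their mother, so the E171 mice were exposed before birth, through suckling and for 16 weeks of adult life. The other 16 mice had the same treatments but were moved at 5 weeks to a diet that the group labels call Western and the treatment protocol high-fat. No other allele or agent is named for any group, and E171 exposure is known from the labels alone. The labels give neither litter nor the hour of sampling. Littermates may therefore share a group, whereas the p-values treat every mouse as an independent sample.

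E171 is a pigment of titanium dioxide particles, some of them nanosized. Particles that pass the gut wall reach the liver with portal blood, where resident macrophages, the Kupffer cells, take up foreign particles. Questions asked of such particles in liver concern oxidative stress with its NRF2 response, metal handling, DNA damage with its p53 response, inflammation, and lipid metabolism, and the gene lists below are ordered around these.

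Liver RNA of each mouse was hybridised to 1 one-colour Agilent array. A level below is log2 of the processed spot intensity minus the 75th percentile of its array. A difference is the mean level in E171 livers minus the mean in control livers, so a negative one means less signal in E171 livers, and a level of 0 lies at the 75th percentile of all probes. Differences come with the standard error (SE) and a p-value of limma's two-sided moderated test. A gene passed if its p-value adjusted by the Benjamini-Hochberg method over all 22816 tested genes was below 0.05.

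The arrays of both groups were of similar quality. The 75th percentile averaged 354 ± 47.5 intensity units on E171 arrays and 363 ± 40.6 on control arrays (SD, n = 8 each; exact permutation p = 0.681, two-sided over all 12870 splits). Arrays held 33697 to 35938 probes well above background, with no saturated spot, and correlated at 0.988 to 0.996 within E171, 0.987 to 0.994 within control and 0.987 to 0.995 between the groups. The 16 arrays lay on 4 slides with 2 mice of each group on every slide. All 12 hepatocyte markers, Alb among them, were measured. Their summed signal was 5007 to 6639.7 times the 75th percentile in E171 livers and 4965 to 6207 times in control livers, so the tissue label holds.

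The groups did not separate in the leading directions of variation. The first 2 principal components carried 16.5% and 13.9% of the variance, and the difference between E171 and control scores gave exact permutation p-values of 0.676 and 0.172. E171 replicate 6, at 36.5, and control replicate 5, at 37.1, lay at the far end of the first component. E171 replicate 6 also had the lowest 75th percentile, 248.

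**Figure D1:**
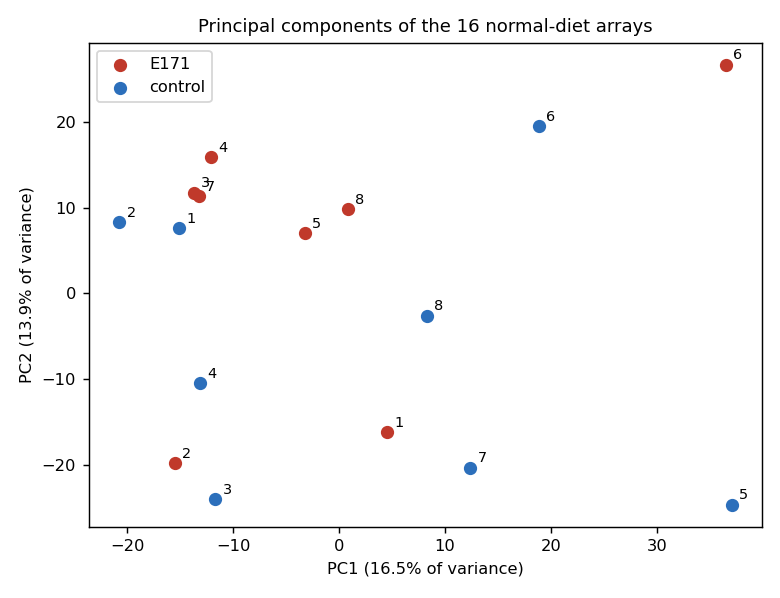
Scores of the 16 normal-diet arrays on the first 2 principal components (axes in arbitrary units, with the percent of variance); each point is 1 mouse and carries its replicate number, E171 in red and control in blue. The groups are interspersed, with E171 replicate 6 and control replicate 5 at the right.

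No gene passed. Of 22816 genes, 0 (0%) reached an adjusted p below 0.05 in limma, in either direction, and the lowest adjusted p was 0.887. At an unadjusted p below 0.05 there were 969 genes (4.25%), 569 (2.49%) higher and 400 (1.75%) lower in E171 livers. The count was 998 without E171 replicate 6 and 807 without control replicate 5. Among the 22142 genes well above background on at least 6 arrays of both groups, a restriction chosen after seeing the data, it was 3.97%, and the other 674 entered through 1 group only. Unless stated otherwise, the 4.25%, or 2.49% higher and 1.75% lower, is the background for the normal-diet counts below. A p below 0.05 in the counts that follow is unadjusted. Of the 969, 58.7% were higher, but the split depended on the processing and on single mice. It was 50.8% higher with quantile normalization, 42.9% with normexp background correction and 41.1% in the deposited log2 table. Leaving out 1 mouse moved it from 49.8% (control replicate 2) to 64.1% (control replicate 6).

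Most differences were small, and the intervals around them narrow. The middle 90% of differences lay between -0.23 and 0.23 and the median was 0.01. The median SE was 0.10, and the median 95% interval reached 0.22 to either side. For 22333 genes (97.9%) that interval lay within a 2-fold difference either way, and for 20101 genes (88.1%) within 1.5-fold, taken gene by gene with no adjustment. Only 20 genes had a mean difference above 1 in size, 5 higher and 15 lower. The median SD was 0.19 among E171 mice and 0.21 among control mice.

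**Figure D2:**
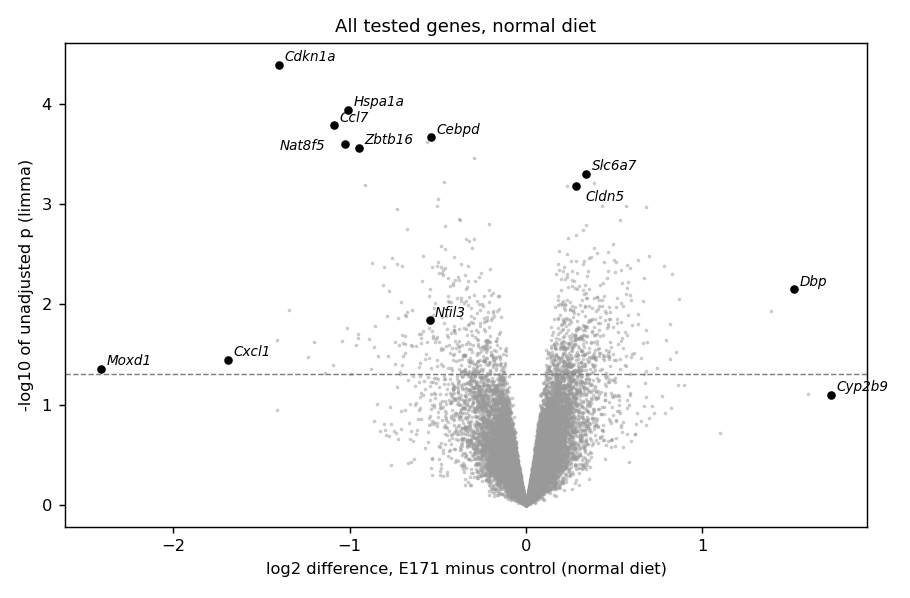
Each point is 1 of the 22816 tested genes; the x axis gives the log2 difference, E171 minus control, and the y axis -log10 of the unadjusted limma p, with a dashed line at 0.05. Cdkn1a stands highest at -1.40, while genes with larger differences, such as Moxd1 at -2.41 and Cyp2b9 at 1.73, have larger p-values.

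The genes with the smallest p-values that were lower in E171 livers were Cdkn1a, Hspa1a, Ccl7, Cebpd, Nat8f5, Zbtb16, Lman1l and AA414992. None of them passed, with adjusted p-values of 0.887 to 0.999. They were picked for small p, so their p-values and the sizes of their differences describe a selection. Probes of the 4 that also passed on the Western diet, and of the Hspa1a paralog Hspa1b, are shown to give the sequences behind these values. Each line has the first 30 of the 60 bases of the probe, 5′ to 3′, in lower case, from the deposited scanner files. Positions are those given for each probe in these files, whose headers name the mm9 build: Cdkn1a chr17:29237377-29237436 (+), Hspa1a chr17:35106766-35106825 (-), Hspa1b chr17:35093374-35093405 (-), Zbtb16 chr9:48462419-48462478 (-) and Cebpd chr16:15888459-15888518 (+). The Hspa1b interval is shorter than its probe of 60 bases, so it does not place the whole probe.
Cdkn1a: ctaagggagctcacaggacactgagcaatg
Hspa1a: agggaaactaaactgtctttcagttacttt
Hspa1b: taatctaagtaggttaaagatggtgtagtc
Zbtb16: tatttcttccgttctacaggaccttgctct
Cebpd: gacatttccgacagacttttgtagataaga
The probes of Hspa1a and Hspa1b, neighbouring genes with nearly the same protein, share no run longer than 5 bases. Neither probe was compared with the transcript of the other gene, so signal from the other gene was not tested.

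Cdkn1a encodes p21, an inhibitor of cyclin-dependent kinases that p53 and stress signals induce. Its level in E171 livers had a lowest value of -1.30, a median of -0.71 and a highest of -0.20, against -0.24, 0.88 and 1.53 in control livers. All but 1 of the E171 mice lay below every control mouse. The difference was -1.40 (SE 0.25, 95% interval -1.94 to -0.86, adjusted p = 0.887).

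Hspa1a encodes the heat-inducible Hsp70 chaperone. Its level in E171 livers ran over -1.39, -0.80 and -0.51 (lowest, median and highest), against -0.50, 0.11 and 1.15 in control livers. The groups did not overlap, and Hspa1a was the 1 gene of 22816 (0.00438%) of which this held. With 22816 genes and 12870 possible splits of the mice, a gene without overlap can arise by chance. The highest E171 mouse and the lowest control mouse were almost level. The difference was -1.01 (SE 0.20, adjusted p = 0.887). Hspa1b, the paralog, had a difference of -0.51 (SE 0.25, 95% interval -1.05 to 0.03), and 3 of 8 E171 mice were below all controls.

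Ccl7, a chemokine that draws monocytes, was dim. It was well above background on 2 of 8 E171 arrays and on 8 of 8 control arrays. It entered the test through the control group alone, so its difference is set against signal mostly not well above background. Its level was -5.95, -5.55 and -4.84 in E171 livers, against -5.09, -4.38 and -3.52 in control livers (lowest, median, highest), with a difference of -1.09 (SE 0.22, adjusted p = 0.887). Normexp correction, whose offset is added to every spot and compresses dim signals most, gave -0.15, and the deposited log2 table -0.40.

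Cebpd, a transcription factor of the acute phase and of glucocorticoid responses, varied little among E171 mice. It measured 0.90, 1.09 and 1.29 in E171 livers, against 1.11, 1.60 and 2.15 in control livers. The difference was -0.54 (SE 0.12, adjusted p = 0.887), and the ranges overlapped.

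Zbtb16 encodes PLZF, a zinc finger repressor whose gene glucocorticoids induce. It measured 0.84, 1.54 and 2.36 in E171 livers, against 1.95, 2.33 and 3.11 in control livers, and 7 of 8 E171 mice were below all controls. The difference was -0.95 (SE 0.21, adjusted p = 0.887). Its second kept probe gave -0.79.

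Nat8f5, of the N-acetyltransferase 8 family, measured -0.28, 0.56 and 1.06 in E171 livers, against 0.77, 1.62 and 2.21 in control livers. Here too 7 of 8 E171 mice lay below all controls, and the difference was -1.03 (SE 0.22, adjusted p = 0.887). Lman1l, a lectin-like protein related to a cargo receptor of the secretory route, had a small difference of -0.30 (SE 0.07). AA414992, with no role given here, had -0.50 (SE 0.13).

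Among genes higher in E171 livers the differences were smaller. The 8 with the smallest p-values were Slc6a7, Lbx2, Cldn5, Tiam2, Exph5, Cibar2, Fbxw22 and Serpina6, with differences of 0.23 to 0.68, and none passed. Cldn5, a tight junction protein of endothelium, measured 1.08, 1.23 and 1.38 in E171 livers, against 0.67, 0.93 and 1.17 in control livers, with a difference of 0.29 (SE 0.07, adjusted p = 0.999). Serpina6 encodes the corticosteroid-binding globulin that the liver secretes into blood. It measured 5.69, 5.86 and 6.25 in E171 livers, against 5.33, 5.56 and 5.87 in control livers, with a difference of 0.33 (SE 0.09, adjusted p = 0.999). In both genes the groups overlapped, with 5 and 3 E171 mice above all controls.

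Slc6a7, a brain-type proline transporter, differed by 0.34 (SE 0.08), and Lbx2, a homeobox factor, by 0.23 (SE 0.06). Tiam2, an activator of the small GTPase Rac, differed by 0.43 (SE 0.11), while its 3 kept probes ran from -0.07 to 0.63. Exph5, an effector of the vesicle GTPase Rab27, differed by 0.57 (SE 0.14). Cibar2 was well above background on 6 E171 and 2 control arrays and Fbxw22 on 8 and 5, with differences of 0.68 (SE 0.17) and 0.54 (SE 0.14). Both entered through the E171 group alone, and normexp gave 0.11 and 0.10, so these differences are set against signal partly not well above background. Exph5 also had 0.11 with normexp. All 16 leading genes had the same sign on all 4 slides, which held for 11.1% of all genes, 5.82% higher and 5.25% lower, and which choosing by small p favours.

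**Figure D3:**
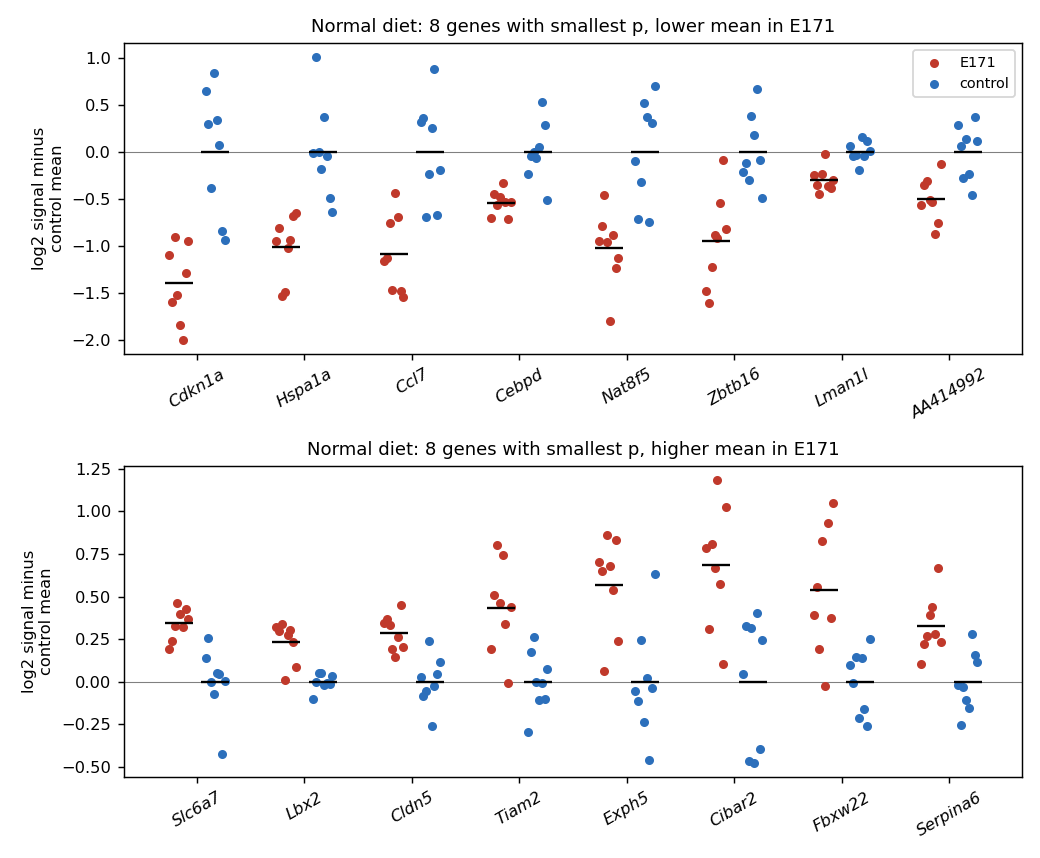
Levels of the 16 leading genes in each mouse, minus the control mean of the gene (log2 scale); E171 in red at the left and control in blue at the right of each gene, bars at group means. In the upper panel Hspa1a is the gene without overlap; in the lower panel the groups overlap in every gene.

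The Western-diet mice give a separate set of arrays for the same treatment, with no mouse shared, though hybridised on the same slides. There, in a fit of all 32 arrays, E171 and control livers differed in 84 genes (0.368%) that passed, 40 higher and 44 lower. That fit pools the spread over the mice of both diets. Choosing genes by a small normal-diet p favours a small spread among normal-diet mice. The Western-diet p-values of genes so chosen are therefore not independent of the choice. The sign was the same on both diets in 56.8% of all genes, and in 67.6% of the 969 with p below 0.05 on the normal diet. The share of all genes with p below 0.05 on the Western diet was not counted, so counts of such genes have no background here. Of the 8 leading normal-diet genes that were lower, 6 had the same sign on the Western diet, all 6 with p below 0.05, and 4 passed. The 4 were Zbtb16 at -2.17 (adjusted p = 0.00227), Hspa1a at -1.60 (adjusted p = 0.00421), Cdkn1a at -1.34 (adjusted p = 0.0259) and Cebpd at -0.68 (adjusted p = 0.0365). Without Ccl7 the same sign was held by 5 of 7, all 5 with p below 0.05. Ccl7 had -0.99 (adjusted p = 0.0999) and AA414992 -0.39 (adjusted p = 0.158) there. Nat8f5 and Lman1l had 0.05 each.

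Of the 8 leading higher genes, 6 had the same sign on the Western diet, 2 with p below 0.05, and none passed. Without Cibar2 and Fbxw22 these were 4 of 6, with 1 at p below 0.05. Tiam2 had 0.42 (adjusted p = 0.359) and Fbxw22 0.51 (adjusted p = 0.161) there, and Slc6a7 and Exph5 were at -0.01 and -0.21. The difference between the diets was tested by the interaction of E171 and diet, and 0 of 22816 genes passed in limma (lowest adjusted p = 0.630). At p below 0.05 there were 1193 genes (5.23%), with a higher E171 minus control difference on the Western diet in 2.97% of all genes and a lower one in 2.26%. The interaction contains the normal-diet difference by which the 16 leading genes were picked, so that choice favours a small interaction p among them. Among these 16 genes 6 had an interaction p below 0.05. Nat8f5 was 1 of these (interaction 1.08, limma adjusted p = 0.867), so no gene can be called particular to the normal diet.

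Read from the Western-diet side, 74 of the 84 passing genes had the same sign on the normal diet, against 56.8% of all genes. On the normal diet 17 of the 84 (20.2%) had p below 0.05, all 17 with the same sign, beside 4.25% of all genes. The 40 higher genes had a median of 0.11 on the normal diet and 0.54 on the Western diet. The 44 lower genes had -0.20 and -0.66. All 84 were picked for passing on the Western diet, which favours larger sizes there. That pick also used a spread pooled over mice of both diets, so it favours genes with a small spread among normal-diet mice. Such genes reach a small normal-diet p more easily, so the 4.25% is not a matched background for the 20.2%. In the interaction test 0 of the 84 passed. Besides the 4 genes above, the 17 included Nfil3, a repressor in the circadian and immune systems, at -0.55 on the normal diet and -1.11 on the Western diet. They also included Igfbp1, an insulin-like growth factor binding protein that fasting and stress hormones induce, at -0.95 and -1.72. Thbd, the thrombin receptor thrombomodulin, had -0.39 and -0.65, and Jdp2, a repressor of AP-1 factors, -0.41 and -0.61. Thbd and Jdp2 were picked after their values were seen.

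**Figure D4:**
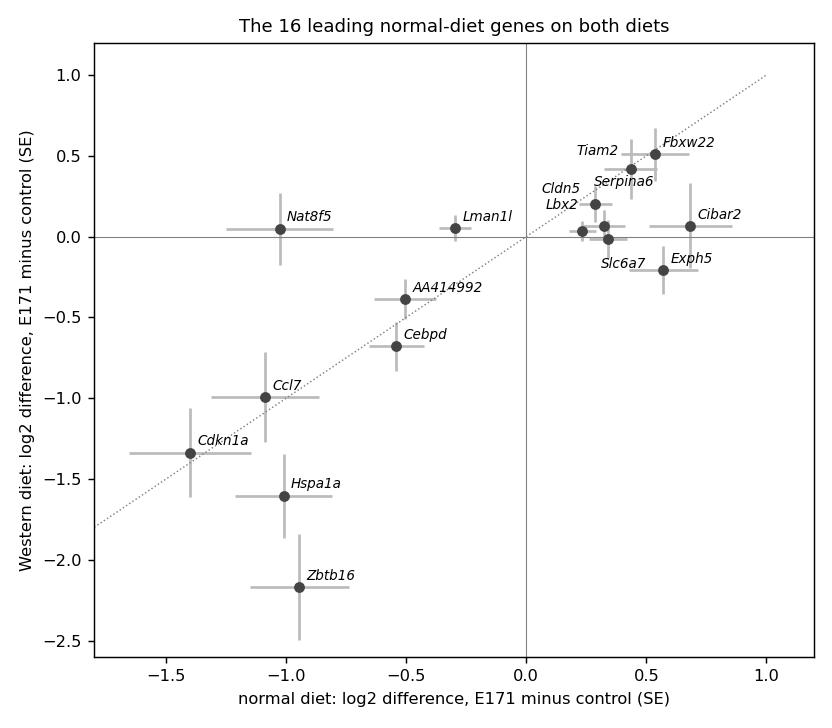
Differences of the 16 leading normal-diet genes, E171 minus control with SE bars (log2 scale), on the normal diet (x axis) and on the Western diet (y axis); the dotted line marks equal values. Zbtb16, Hspa1a, Cdkn1a and Cebpd, which passed on the Western diet, lie at the lower left, and Nat8f5 and Lman1l lie near 0 on the y axis.

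No member of the oxidative stress lists passed, and most of their intervals were narrow. Of 20 measured NRF2 targets, genes that this factor induces on oxidative or electrophile stress, 0 had p below 0.05 higher and 1 lower, with a median difference of 0.00 beside 0.01 for all genes. The 95% interval of all 20 lay within 2-fold and of 18 within 1.5-fold. Ugdh, which makes UDP-glucuronic acid, had -0.26 (SE 0.11) and Pgd, of the pentose phosphate pathway, -0.22 (SE 0.15), or -0.11 without control replicate 4. Of 21 antioxidant enzymes, 0 were higher and 1 lower with p below 0.05 and the median was -0.03, with all 21 intervals within 1.5-fold. Gss, glutathione synthetase, had 0.17 (SE 0.12), or 0.06 without control replicate 4. Gpx3, an extracellular glutathione peroxidase, had -0.15 (SE 0.18), and -0.09 without E171 replicate 6, -0.05 without E171 replicate 8, -0.06 without control replicate 1 and -0.05 without control replicate 3. The 29 subunits of oxidative phosphorylation lay between -0.08 and 0.08, all with intervals within 1.5-fold.

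In the list of metal and iron handling, 0 of 24 members were higher and 2 lower with p below 0.05, and the median was 0.02. The 2 were the metallothioneins, small proteins that bind zinc, copper and other metals. Mt2 measured 0.81, 1.18 and 1.80 in E171 livers, against 1.32, 1.74 and 5.93 in control livers (lowest, median, highest). The highest control value was replicate 5. The Mt2 difference was -1.24 (SE 0.54, 95% interval -2.37 to -0.11), and -0.74 without control replicate 5. Mt1 had -0.99 (SE 0.47, 95% interval -1.99 to 0.00), and -0.57 without it.

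Among 20 heat shock proteins, 0 were higher and 1, Hspa1a, was lower with p below 0.05, and the median was -0.04. On the Western diet 3 members of this list passed, all lower. Among 23 genes of the unfolded protein and integrated stress response, 0 had p below 0.05 and the median was 0.10, with 0.01 without control replicate 4, 0.15 without control replicate 2 and 0.15 without control replicate 5. Atf3, a stress-induced factor, had -0.40 (SE 0.29, and -0.19 without control replicate 5) and Chac1, which degrades glutathione, -0.36 (SE 0.35, with -0.59 without control replicate 1 and -0.14 without control replicate 7).

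Of 19 p53 targets, 1 was higher and 4 lower with p below 0.05, with a median of -0.10. Leaving out E171 replicate 6 or control replicate 5 gave 0 higher and 3 lower. Beside Cdkn1a the lower ones were Btg2, an antiproliferative gene, at -0.59 (SE 0.23), Tnfrsf10b, a death receptor, at -0.24 (SE 0.09) and Ccng1, cyclin G1, at -0.19 (SE 0.08). The higher one was Plk2, a polo-like kinase, at 0.27 (SE 0.12). Plk3, another kinase of that family, had -0.66 (SE 0.38), or -0.39 without control replicate 7. Btg2, Tnfrsf10b, Ccng1 and Plk2, like the members with p below 0.05 in the next lists, are named because 8 lists held 4 or more such members, a choice made after the values were seen. In the DNA repair list of 28, 2 were higher and 1 lower. Gadd45a, induced by DNA damage, had 0.87 (SE 0.29, 95% interval 0.25 to 1.49) and its paralog Gadd45g -0.84 (SE 0.48, 95% interval -1.86 to 0.18), opposite in sign. Without control replicate 4, Gadd45g had -0.48.

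Of 19 immediate early genes, which transcribe within minutes of a stimulus, 0 were higher and 5 lower with p below 0.05. The median was -0.30, and 17 of the 19 differences were below 0. The lower ones numbered 5 without E171 replicate 6 and 4 without control replicate 5. Fos measured -3.08, -2.28 and -1.60 in E171 livers, against -2.63, -1.38 and 0.72 in control livers, with a difference of -1.01 (SE 0.38, 95% interval -1.82 to -0.20). Fosl2 had -0.52 (SE 0.18), Klf4 -0.35 (SE 0.15), Ier3 -0.36 (SE 0.15) and Egr2 -0.28 (SE 0.13). Myc had -0.73 (SE 0.57), or -0.25 without control replicate 4.

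Of 18 glucocorticoid receptor targets, 0 were higher and 5 lower with p below 0.05. The median of -0.33 was the lowest of the 46 lists, and 15 of the 18 were below 0. Those lower were 7 without E171 replicate 6 and 4 without control replicate 5. The 5 were Cebpd, Zbtb16, Errfi1, Lpin1 and Mt2, and Cebpd, Zbtb16 and Mt2 were described above. Errfi1, a feedback inhibitor of the EGF receptor, measured 6.04, 6.64 and 6.98 in E171 livers, against 6.52, 7.27 and 7.67 in control livers, with a difference of -0.55 (SE 0.18, 95% interval -0.92 to -0.17). Lpin1, a phosphatidate phosphatase and coactivator, had -0.72 (SE 0.29, 95% interval -1.34 to -0.10). On the Western diet the list's median was -0.46 and 2 members passed, both lower.

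The clock list held differences of both signs. Of 21 clock and clock output genes, 5 were higher and 2 lower with p below 0.05, with a median of 0.11. That median ran from 0.02 without control replicate 7 to 0.24 without E171 replicate 8. The higher ones numbered 2 without E171 replicate 6 and 1 without control replicate 5. Dbp, a factor whose mRNA cycles strongly over the day in liver, measured 0.69, 3.69 and 4.96 in E171 livers, against 0.86, 1.80 and 2.97 in control livers. The difference was 1.52 (SE 0.50, 95% interval 0.47 to 2.57), with an SD of 1.41 among E171 mice and 0.58 among control mice, and 5 of 8 E171 mice lay above all controls while 1 lay below all. Per3, a period gene, had 0.82 (SE 0.36), Tef, a relative of Dbp, 0.47 (SE 0.20), Wee1, a mitotic kinase driven by the clock, 0.51 (SE 0.22) and Cry2, a cryptochrome, 0.28 (SE 0.12). Nfil3, which binds the same sites as Dbp, had -0.55 (SE 0.20, 95% interval -0.97 to -0.12). The Dbp and Per3 differences on the Western diet were 1.18 (adjusted p = 0.225) and 0.86 (adjusted p = 0.224). The part of sampling time in the clock, glucocorticoid and immediate early values was not tested.

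Of 28 cytokines and chemokines, 0 were higher and 5 lower with p below 0.05, and the median was -0.19. Those lower were 3 without E171 replicate 6 and 2 without control replicate 5. Of the 26 well above background in both groups, which leave out Ccl7, 4 were lower, and with normexp the list median was -0.08. Cxcl1, a neutrophil chemokine, had -1.69 (SE 0.74, 95% interval -3.25 to -0.13) with E171 mice spread from -0.40 to 2.42 and control mice from -0.32 to 5.36. Ccl2, the monocyte chemokine MCP-1, measured -1.67, -1.08 and -0.67 in E171 livers, against -1.02, -0.36 and 1.18 in control livers, a difference of -0.88 (SE 0.26, 95% interval -1.43 to -0.32). Tnfaip3, an inhibitor of NF-kappaB, had -0.36 (SE 0.16) and Vcam1, an adhesion molecule, -0.28 (SE 0.12).

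Of 28 interferon-stimulated genes, 0 were higher and 5 lower with p below 0.05, the median was -0.20, and 25 were below 0. Without E171 replicate 6, as without control replicate 5, 3 were lower. The median was -0.10 without E171 replicate 7. Ifi27 had -0.26 (SE 0.08), Ifi27l2a -0.41 (SE 0.15), Oas2 -0.41 (SE 0.16), Ifih1, an RNA sensor, -0.23 (SE 0.10) and Oas1g -0.43 (SE 0.20). None of the 24 acute phase proteins had p below 0.05, and 22 were below 0 with a median of -0.15, which was -0.04 without control replicate 5. Serum amyloid genes Saa2 and Saa1 had -0.83 (SE 0.59) and -0.80 (SE 0.57), and -0.31 and -0.30 without control replicate 5. Complement and coagulation genes had 1 of 30 higher and 0 lower with p below 0.05, and all 30 intervals lay within 1.5-fold. The 16 genes of MHC class I and the 8 of MHC class II presentation had 0 with p below 0.05 and all intervals within 1.5-fold, with medians of -0.06 and 0.02. The MHC class I median was -0.02 without E171 replicate 7, -0.09 without E171 replicate 5, and ran from -0.10 without control replicate 2 to -0.03 without control replicate 7, with -0.04 without control replicate 5.

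In lipid metabolism no list had more than 2 members with p below 0.05. Of 20 lipogenesis genes 1 was lower, Lpin1, and Srebf1, the lipogenic factor, had 0.39 (SE 0.29). Of 17 genes of lipid droplets and lipid uptake 0 were higher and 2 lower, with a median of -0.15, or -0.09 without E171 replicate 7. Cidec, a droplet fusion protein, had -0.70 (SE 0.30, 95% interval -1.33 to -0.07) and Plin4, a perilipin, -0.52 (SE 0.18, 95% interval -0.91 to -0.14). None of the 26 fatty acid oxidation genes had p below 0.05, with Angptl4 at -0.60 (SE 0.36) and Pdk4 at -0.52 (SE 0.28). None of the 22 SREBP2 targets, genes of cholesterol synthesis and uptake, had p below 0.05. They ran from -0.32 for Dhcr7, or -0.15 without control replicate 4, to 0.11. The median was -0.08, but 0.02 without control replicate 4 and -0.01, -0.04, -0.13, -0.14, -0.15 and -0.21 without control replicates 8, 5, 3, 7, 2 and 6. None of the 21 bile acid genes did either, with Cyp7a1, the rate-limiting enzyme of bile acid synthesis, at -0.65 (SE 0.71). Cyp7a1 had -0.35 without E171 replicate 6, -0.995 without E171 replicate 2 and -1.05 without control replicate 6. The 27 apolipoprotein and lipoprotein assembly genes lay between -0.15 and 0.22.

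Of 21 genes of glucose metabolism and insulin signalling, 0 were higher and 3 lower with p below 0.05, with a median of -0.01. Igfbp1 measured 3.54, 4.79 and 5.80 in E171 livers, against 3.92, 6.02 and 6.66 in control livers, a difference of -0.95 (SE 0.38, 95% interval -1.74 to -0.16), and 1 of the 8 E171 mice lay below all controls. Ppp1r3g, a glycogen-targeting subunit, had -0.76 (SE 0.89), with -0.26 and -0.37 without E171 replicates 1 and 2 and -0.44 and -0.35 without control replicates 6 and 7.

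Xenobiotic cytochromes P450 had 0 of 24 with p below 0.05 in spite of 2 of the largest differences on the array. Cyp2b9 measured -3.62, -0.48 and 1.73 in E171 livers, against -5.18, -2.88 and 1.40 in control livers, a difference of 1.73 (SE 0.93, 95% interval -0.23 to 3.69). Cyp2b10, a target of the receptor CAR, had 1.60 (SE 0.85, 95% interval -0.20 to 3.41). In both genes the ranges of the groups largely overlapped. The levels of Cyp2b9 and Cyp2b10 moved together from mouse to mouse, so these may not be separate differences. Whether their probes share signal was not tested. Conjugation enzymes had 0 of 24 higher and 1 lower, Nat8 at -0.44 (SE 0.15), and Sult1e1, estrogen sulfotransferase, had -0.71 (SE 0.50), with -0.45 without control replicate 5 and -0.18 with normexp.

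Of 23 male-biased liver genes, which growth hormone pulses sustain, 1 was higher and 5 lower with p below 0.05, and the median was -0.04. Without E171 replicate 6 there were 0 higher and 5 lower, and without control replicate 5, 0 higher and 4 lower. Cyp4a12a measured 2.80, 3.85 and 4.14 in E171 livers, against 3.73, 4.17 and 4.74 in control livers, a difference of -0.55 (SE 0.21, 95% interval -0.98 to -0.11). Its near copy Cyp4a12b had -0.53 (SE 0.20), and the probes of such copies may share signal. Elovl3, a fatty acid elongase, had -0.41 (SE 0.16), Susd4, a complement inhibitor, -0.44 (SE 0.17) and Igfals, a carrier of IGF, 0.35 (SE 0.16). Moxd1 had -2.41 (SE 1.11, 95% interval -4.74 to -0.08), and -1.48 without control replicate 5, the highest mouse at 3.66. It was well above background on 5 E171 and 6 control arrays and entered through the control group alone, and normexp gave -1.18. Without Moxd1 the list had 1 of 22 higher and 4 lower. Of 13 female-biased genes 1 was higher and 0 lower, Acot3, an acyl-CoA thioesterase, at 0.85 (SE 0.36).

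Among markers of other liver cells none passed, and those with p below 0.05 were in the B cell, endothelial and erythroid lists. In whole tissue, fewer cells of a type and less RNA per cell cannot be told apart. Of 7 measured B cell and plasma cell markers 4 were higher and 0 lower with p below 0.05, and the median of 0.38 was the highest of the 46 lists, with 0.20 under normexp. The higher ones numbered 4 without E171 replicate 6 and 2 without control replicate 5. Ms4a1, which encodes CD20, measured -4.15, -3.45 and -3.08 in E171 livers, against -4.91, -4.16 and -3.42 in control livers, a difference of 0.64 (SE 0.19, 95% interval 0.24 to 1.04). Fcer2a, CD23, had 0.57 (SE 0.19) and Cd79b, of the B cell receptor, 0.39 (SE 0.18). These markers are dim, and normexp gave 0.22 for Ms4a1 and 0.20 for Fcer2a. The summed signal of the 7 markers was low, 1.05 to 1.91 times the 75th percentile in E171 livers and 0.819 to 1.48 times in control livers. Cd79a and Blk were not well above background. The Western-diet median of these markers was 0.45, and none passed.

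Kupffer cell and macrophage markers had 0 of 14 with p below 0.05, a median of -0.12 and intervals within 2-fold for 13. Leaving out single mice moved the median from -0.23 (control replicate 2) to -0.01 (control replicate 5), with -0.08, -0.08, -0.19 and -0.07 without E171 replicates 2, 7, 5 and 1 and -0.07 and -0.07 without control replicates 7 and 3. Marco, a scavenger receptor that binds particles, had -0.54 (SE 0.66) and Timd4, a receptor of resident Kupffer cells, -0.23 (SE 0.24), and without control replicate 5 they had -0.23 and -0.11. Marco also had -0.26 and -0.33 without E171 replicates 1 and 2, and -0.86 and -0.34 without control replicates 2 and 8, and Timd4 -0.38 and -0.12 without control replicates 2 and 7. The summed signal of the macrophage list was 62.6 to 118 times the 75th percentile in E171 livers and 45.3 to 151 times in control livers. Lipid-associated macrophage markers had 0 of 9, neutrophil markers 0 of 7 and T and NK cell markers 0 of 13. Of 15 endothelial markers 3 were higher and 0 lower, with a median of 0.06 and all intervals within 1.5-fold. Stellate cell markers had 0 of 11 with p below 0.05 and all intervals within 1.5-fold. The fibrosis list had 0 of 23 higher and 1 lower, with a median of 0.00. Cholangiocyte, adipocyte and exocrine pancreas markers had 0 with p below 0.05, and erythroid markers 1 of 4, Alas2 at -0.21 (SE 0.08).

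Over all 46 lists no member passed. The lists name 854 genes, of which 802 were measured, and 66 of these (8.23%) had p below 0.05 beside 4.25% of all genes, 47 of the 66 lower. Members of a list may vary together between mice, and the lists were chosen with earlier results known, so these shares are descriptions.

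**Figure D5:**
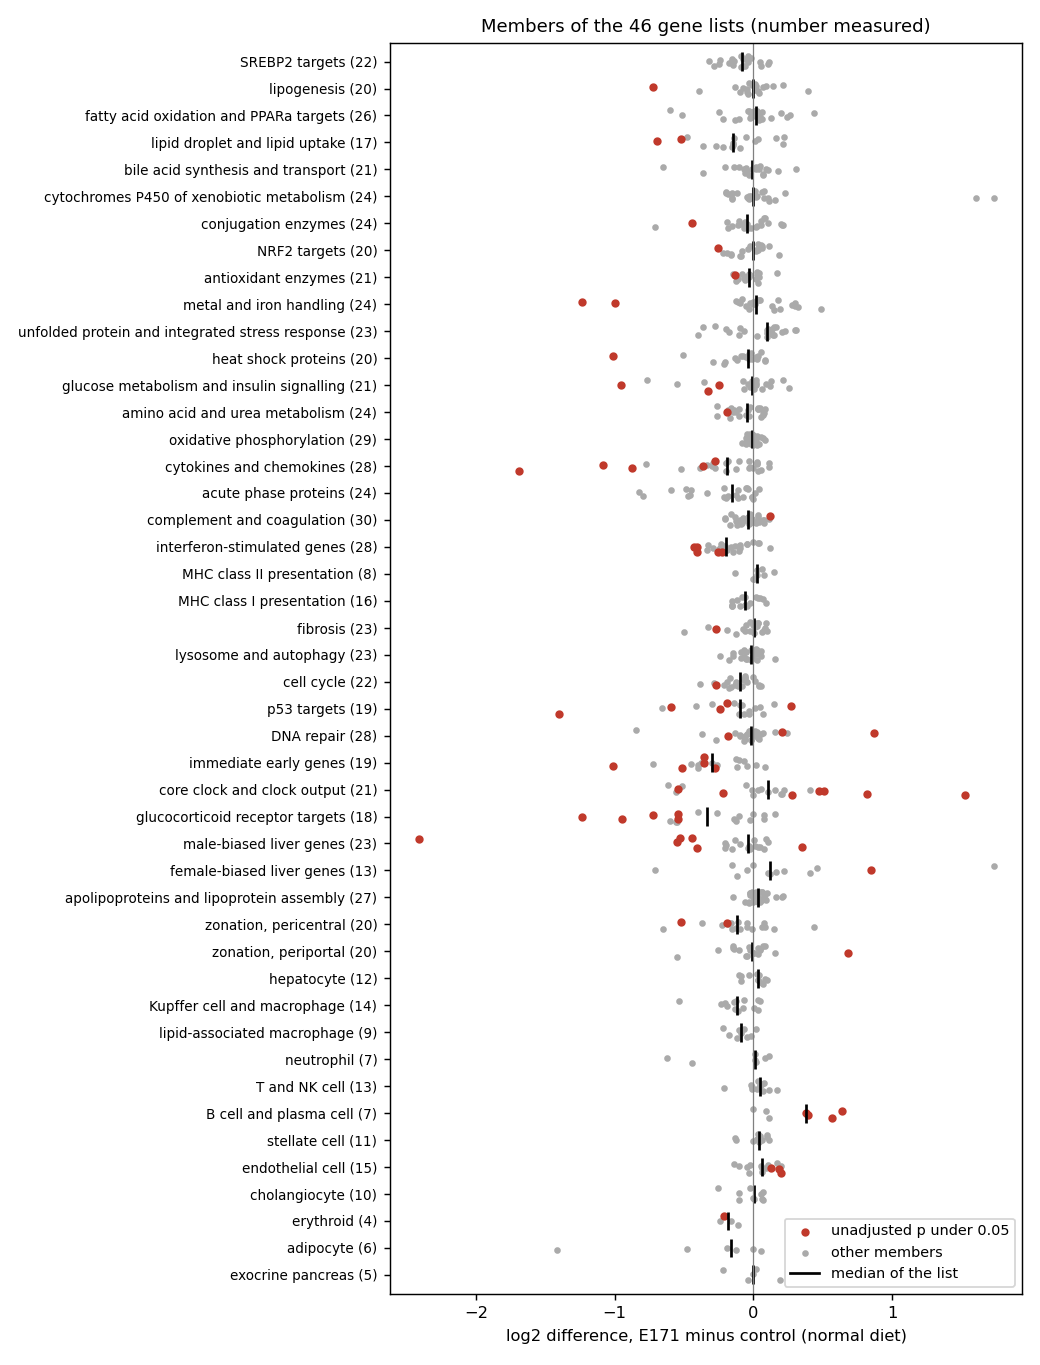
Differences of every measured member of the 46 lists (x axis, log2, E171 minus control), with red points for members with an unadjusted p below 0.05, grey points for the others and a black bar at the list's median; the number measured stands beside each name. Medians lie between -0.33 for glucocorticoid receptor targets and 0.38 for B cell and plasma cell markers, and the oxidative phosphorylation points lie between -0.08 and 0.08.

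The genes that varied most between mice of a group were Moxd1, Cyp2b9, Ppp1r3g, Cyp2b10, Cfd, Syt10, Onecut1 and Derl3. Cfd, the adipocyte and complement factor adipsin, measured -2.95, -1.87 and 1.28 in E171 livers, against -3.83, -0.11 and 3.02 in control livers, with a difference of -1.42 (SE 0.84, 95% interval -3.20 to 0.37). Derl3, of the pathway that removes misfolded proteins, had medians of 2.81 in E171 livers and 1.33 in control livers, and the difference of its means was 0.48 without control replicate 4. Syt10 had 0.10 (SE 0.84) and Onecut1, a hepatocyte transcription factor, -0.21 (SE 0.82), and the sign of both turned when single mice were left out.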

How the data were processed

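Liver RNA of 16 mice was measured on one-colour arrays (Cy3), and 16 Western-diet arrays served for comparison. Per the submitters' processing notes, the deposited intensity values come from Agilent Feature Extraction 10.10.1.1, and limma was named for later steps. Processed spot intensity is linear and already background-subtracted, per the file headers, which place probes on the mm9 build. The deposited value table holds log2 values and served as an alternative, since no source used here states its steps.

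Control spots (leaving 56605 probes of 62976 spots) and outlier spots (49 to 89 per array) were left out, replicate spots averaged, and the 75th percentile of each array subtracted from log2 signal. Probes well above background on at least 6 of 8 arrays of a group were kept, 34325 in all. Names came from accession (22896 probes), symbol (4994) or synonym (253) in a RefSeq gene table of GRCm38.p6, or from the file (598), and 5584 had none. The brightest kept probe stood for a gene, giving 17232 named genes and 5584 known by probe, and 7398 had several kept probes.

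The main limma fit (version 3.58.1, run under R 4.3.3) took the 16 normal-diet arrays and 2 group means. Western-diet values and the interaction come from a fit of 32 arrays. The code was tested on simulated data. Array measures were compared by exact permutation tests. Named genes are the 8 of smallest p in each direction, the 2 members of largest difference in each list and the 8 of largest SD, and others are marked in the text. The members and lists were chosen with earlier results of these data known. Lists were described by counts and medians, with no set test. The number of arrays limits the precision, and nothing in the labels gives litters. Some list members counted in the text are not reported here by name.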

Additional observations from a re-analysis of the deposited data

Results flagged for a closer look

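In groups of 8 arrays, the highest or lowest mouse was compared with its nearest neighbour by Dixon's test at the 95% level, over named genes and array measures. Of 266 groups, 16 (6.02%) held such a value, 6 in E171 and 10 in control. Chance gives about 1 in 20 for independent groups not picked from the same data. The named genes were picked for small p, large difference or large spread in these mice, and some vary together. That rate is therefore no background for the 6.02%. E171 replicate 6 stood apart in Cxcl1, the highest of its group at 2.42, in its 75th percentile, the lowest at 248, and in its first principal component score, the highest at 36.5. Control replicate 5 stood apart in Saa2, the highest at 8.80, in Saa1, the highest at 8.25, and in its number of probes well above background, the lowest at 33697. Control replicate 4 was lowest in Syt10 at -2.51, in Gss at 3.27 and in Igfals at 0.28. Control replicate 6 was highest in Ccl2 at 1.18 and in Tef at 4.34. Single values were those of E171 replicate 1 in Sult1e1, the highest at -2.83, E171 replicate 5 in Ctss, the highest at 4.03, E171 replicate 7 in Tap1, the lowest at 0.0894, control replicate 1 in Lbx2, the lowest at -2.40, and control replicate 3 in Pdk4, the lowest at 0.0432.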

How the results depend on the processing

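The count of passing genes was 0 in limma under all 27 alternatives, with a lowest adjusted p of 0.120, which came without control replicate 8. Genes with unadjusted p below 0.05 numbered 969 as reported, 742 to 1204 with each replicate left out, and 597 with normexp, a move of over 1.5 times. The others gave 967 with quantile normalization, 900 in the deposited table, 1261 of 37531 with no filter, 854 of 20905 with probes well above background on all 16 arrays, 965 with slide as a block, 941 with all 32 arrays, 905 with trended and robust variance, 1157 with array weights and 1488 of 34325 over every kept probe, over 1.5 times as many from a larger number of tests. Replicate numbers did not pair the mice: correlations of same-numbered deviations ran from -0.137 to 0.286, and 1 of 8 numbers matched best with itself. The replicate block gave 0 passing genes and 1185 with p below 0.05. The interaction gave 0 passing genes with quantile normalization, slide as a block and the replicate block (lowest adjusted p = 0.113). The signs that turned were those of Tiam2 on its lowest probe (-0.0727), Hmgcs1 and Pgd on their highest probes (0.12 and 0.42), Syt10 with normexp (-0.00778), with array weights (-0.26) and without E171 replicate 6 or control replicate 4 (-0.11 and -0.74, in a leave-one-out range of -0.74 to 0.33), and Onecut1 without E171 replicates 4, 3 and 5 or control replicates 7 and 3 (0.02, 0.13, 0.04, 0.07 and 0.07, in a leave-one-out range of -0.56 to 0.13). Normexp moved 31 of the 129 named genes by over 1.5 times, among them, besides values given above, -0.05 for Oas1g, -0.05 for Egr2, -0.05 for Tnfrsf10b, -0.12 for Ier3, -0.14 for Lman1l, -0.21 for Tnfaip3, -0.23 for Atf3, -0.44 for Myc, -0.31 for Ppp1r3g, 0.14 for Lbx2, 0.17 for Slc6a7, 0.28 for Wee1, 0.96 for Cyp2b10 and 1.04 for Cyp2b9. The deposited table moved 11, among them Exph5 to 0.24, Fbxw22 to 0.20, Cibar2 to 0.19, Fcer2a to 0.32, Ms4a1 to 0.38, Oas1g to -0.19, Egr2 to -0.15 and Sult1e1 to -0.45. Another kept probe gave 0.23 for Ms4a1, 1.33 for Acot3, 0.47 for Cry2, -0.33 for Lpin1 and -0.11 for Ifih1. The medians of the glucocorticoid, immediate early, cytokine, interferon, acute phase, p53, clock and B cell lists kept their sign, though not their size, under all 26 alternatives with gene values, and normexp gave -0.19 for the immediate early list. Differences below about 0.22 lie within the typical 95% interval of 8 mice against 8.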
